A study of Mus musculus and Homo sapiens with 107 samples.

Results

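The 10 long noncoding RNAs (lncRNAs) described here are known from work on cancer cells: MALAT1, NEAT1, H19, GAS5, SNHG1, PVT1, UCA1, LINC-PINT, CYTOR and MIR22HG. They were chosen by Ensembl identifier from the gene tables of 2 lung cancer lines, which hold 25530 identifiers between them. Of the 10, 8 had a row in both tables, while NEAT1 (ENSG00000245532) and UCA1 (ENSG00000214049) had no row in the tables used here and carry no values below. The libraries were made from total RNA depleted of ribosomal RNA, so transcripts without a poly(A) tail could also be read.

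The lines were H1299 and A549, which were established from human non-small-cell lung tumours and whose genotype is labelled wt. Each was given BRM014 at 5 µM or the solvent DMSO for 12 h, with 3 libraries in each of the 4 groups. The DMSO share is 0.05% in the sample titles and 0.5% in the treatment field. BRM014 blocks the ATPases BRM and BRG1 at an allosteric site; a SWI/SNF complex carries one of them as its motor, slides and evicts nucleosomes with it and keeps many enhancers open. As background, both lines are widely described as lacking BRG1. The lines were grown in different media and their libraries had 8 cycles of PCR for H1299 and 9 for A549, so effects of the line, its medium and the PCR cannot be told apart. Of the A549 BRM014 columns, 2 share a header and carry no replicate number; they are called libraries a and b, in column order. In bulk cultures, fewer cells of a kind and less RNA per cell cannot be told apart.

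The lncRNAs studied here act in different ways. Some stay in the nucleus and gather proteins there, as MALAT1 does in nuclear speckles. Others come from genes that also give rise to small RNAs. GAS5 and SNHG1 host small nucleolar RNAs (snoRNAs), which guide chemical modification of ribosomal RNA, and H19 and MIR22HG host microRNAs. PVT1 lies beside the MYC oncogene.

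PVT1 was the one lncRNA of the set that passed the test in both lines, and it fell in both: to 0.868 of its DMSO level in H1299 and to 0.795 in A549. CYTOR rose by 0.19 on the log2 scale in H1299. H19 rose 1.73-fold and MALAT1 1.16-fold in A549. GAS5, SNHG1, LINC-PINT and MIR22HG did not pass the test in either line. No change of a tested member reached 2-fold.

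In H1299, 7 members had enough counts to be tested and 2 of them passed, 1 higher and 1 lower, which is 28.6% of those tested; among all 14986 genes tested in H1299, 22% passed, 9.29% as higher and 12.7% as lower. In A549, 3 of 8 members passed, 2 higher and 1 lower, which is 37.5%, beside 37% of all 15188 genes tested, 17.7% as higher and 19.4% as lower. These shares are near the background of each line. The median log2 fold change of the tested members was -0.05 in H1299 and 0.04 in A549, and that of all genes was 0.003 and 0.02. The median size of a change, without its sign, was 0.06 on the log2 scale in H1299 and 0.12 in A549 for members, beside 0.10 and 0.16 for all genes. Passing means an adjusted p below 0.05 in edgeR's two-sided quasi-likelihood test with Benjamini-Hochberg adjustment over all genes of the table; each adjusted p below comes from that test.

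**Figure D1:**
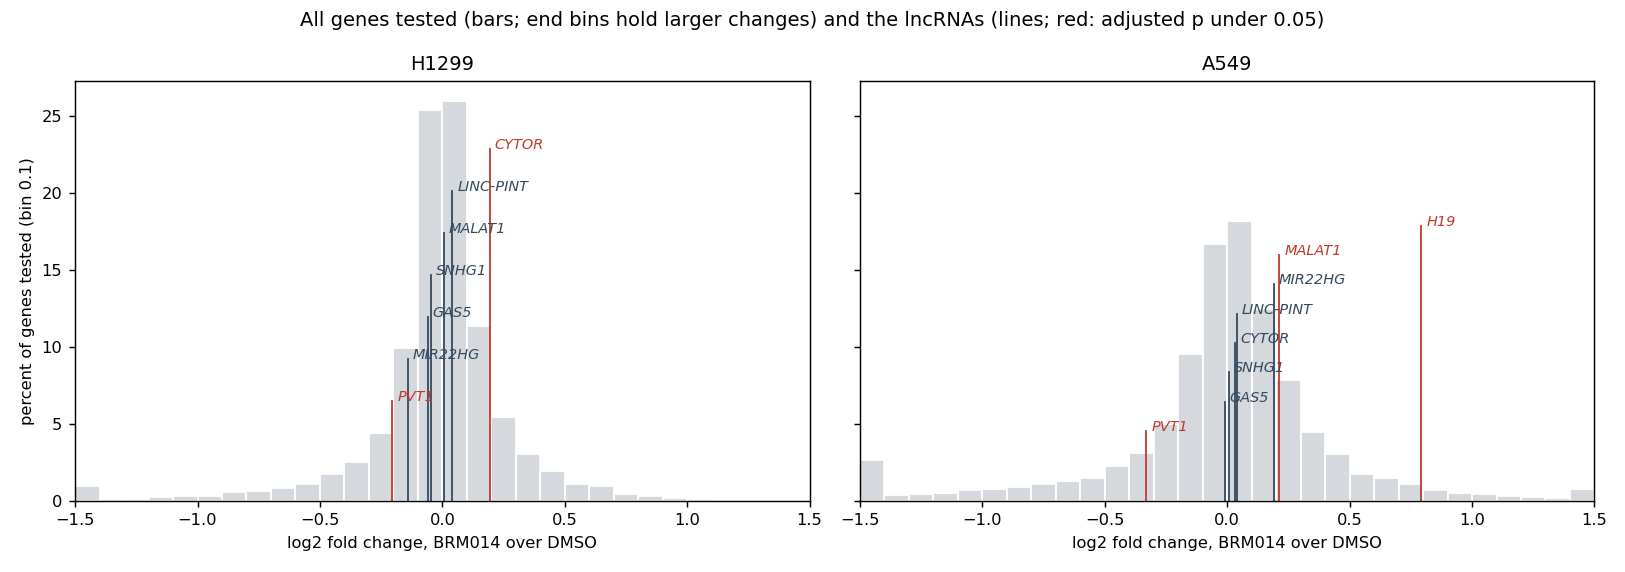
Grey bars give the percent of all genes tested in each 0.1-wide bin of log2 fold change, BRM014 over DMSO, for H1299 (left) and A549 (right), with larger changes collected in the end bins; vertical lines mark the lncRNAs at their log2 fold change, red where the adjusted p was below 0.05, and their heights carry no value. H19 in A549, at 0.79, stands farthest out, with 9.71% of all genes changing at least as much.

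The libraries held 30602193 to 41780029 counts in H1299 with BRM014 and 28412113 to 40072734 with DMSO, and 42417643 to 44910378 in A549 with BRM014 and 40684360 to 50177678 with DMSO. Replicates differed by more than sampling noise in every pair, with a chi-square per degree of freedom of 2.20 to 11.1; the widest gaps were between A549 libraries a and replicate 3 with BRM014 (11.1) and between replicates 1 and 3 with DMSO (9.99). In H1299 the widest gaps were between BRM014 replicate 2 and replicates 1 (5.01) and 3 (4.07). Across all genes, the deviations of A549 library a and of DMSO replicate 1 from their group means had a correlation of 0.201, the highest of the 9 pairs of a BRM014 and a DMSO library in that line. Responses in A549 are therefore also given without both, with 1 library fewer in each group. These libraries were picked for their spread in the same data. That fit called 6456 of all genes, against 5624 with all libraries, so its smaller adjusted p-values are no added support. Levels below are CPM, counts scaled to a common library size with TMM factors of all 12 libraries, and each mean has its SD over 3 libraries. Since gene lengths are not used here, levels are compared between groups for 1 gene and never between genes.

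MALAT1 (ENSG00000251562), a very abundant nuclear RNA first described through its link to metastasis of lung cancer, held most of the counts of the set. It alone took 0.539% to 0.643% of all counts in the 3 H1299 libraries with BRM014 and 0.570% to 0.612% with DMSO. In A549 its share was 0.336% to 0.362% with BRM014 and 0.268% to 0.301% with DMSO. All 8 lncRNAs together took 0.583% to 0.688% of counts in H1299 with BRM014, 0.615% to 0.657% with DMSO, 0.371% to 0.397% in A549 with BRM014 and 0.301% to 0.337% with DMSO.

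In A549, MALAT1 stood at 3515 CPM in library a, 3640 in library b and 3830 in replicate 3 with BRM014, against 2960, 3327 and 3340 CPM in replicates 1, 2 and 3 with DMSO. The 3 treated libraries were all above the 3 control libraries, and the lowest control was replicate 1. The rise was 0.21 ± 0.04 on the log2 scale (standard error, n = 3 each, adjusted p = 0.00229). Without library a and DMSO replicate 1, which were picked for their spread, the log2 fold change was 0.17 (adjusted p = 7.06e-07).

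In H1299, MALAT1 stood at 5748, 5031 and 5919 CPM in replicates 1, 2 and 3 with BRM014, against 5811, 5444 and 5359 CPM with DMSO. The groups overlapped, and replicate 2 with BRM014 was the lowest of the 6 libraries. The log2 fold change was 0.01, with a 95% interval from -0.07 to 0.08 (adjusted p = 0.94). This value depended on replicate 2 with BRM014: without it the log2 fold change was 0.08 (adjusted p = 0.00163).

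The difference between the lines in the MALAT1 response was -0.18 on the log2 scale, H1299 minus A549, with a 95% interval from -0.33 to -0.04 and an adjusted p of 0.0705. The adjusted p fell below 0.05 when A549 DMSO replicate 3 was left out (-0.21, adjusted p = 0.0338), or A549 library a (-0.21, adjusted p = 0.0142), or H1299 replicate 3 with BRM014 (-0.23, adjusted p = 0.0319), or A549 library a and DMSO replicate 1 together (-0.15, adjusted p = 0.0353). Without H1299 replicate 2 with BRM014 the difference was -0.12 (adjusted p = 0.221). It was also below 0.05 with library totals (-0.22, adjusted p = 0.0273) and with no filter on low counts (-0.19, adjusted p = 0.0019). The fit of all 12 libraries thus did not show a different response of MALAT1 in the lines, and the call depended on which libraries entered.

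**Figure D2:**
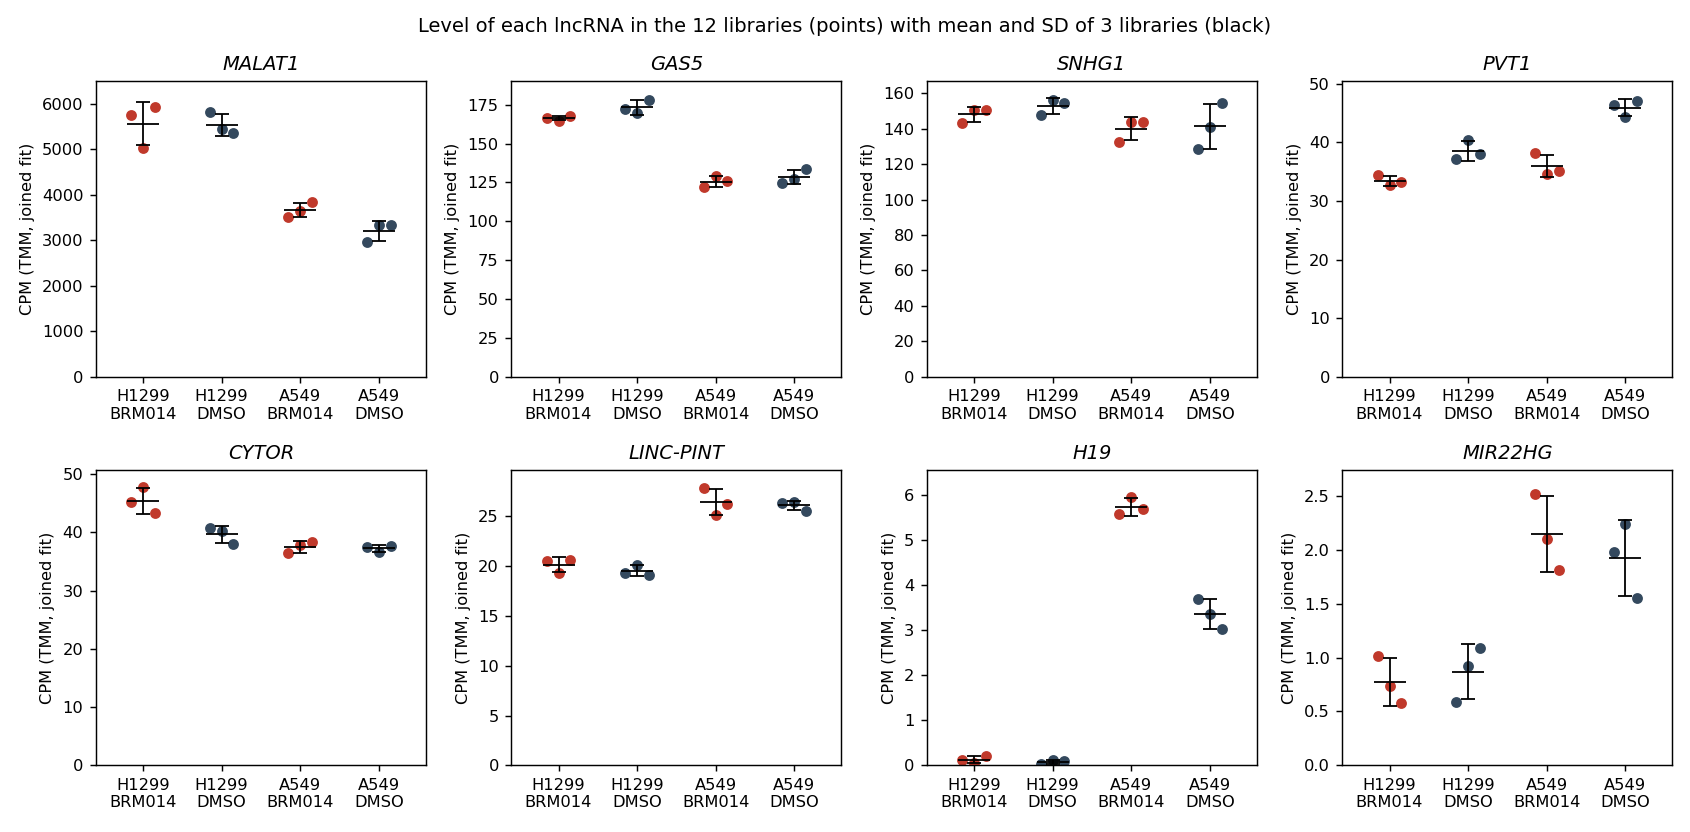
Each panel gives 1 lncRNA; points are the 12 libraries in CPM (linear axis from 0), red for BRM014 and dark for DMSO, and black bars are the mean and SD of 3 libraries. H19 lies near 0 in all 6 H1299 libraries, PVT1 is lower with BRM014 than with DMSO in both lines without overlap, and MALAT1 is at 5031 CPM or above in every H1299 library and at 3830 CPM or below in every A549 library.

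GAS5 (ENSG00000234741) and SNHG1 (ENSG00000255717) carry snoRNAs in their introns. Their spliced RNAs begin with a pyrimidine-rich start shared with ribosomal protein genes and are unstable while translation goes on, which made GAS5 known as a transcript that builds up in growth-arrested cells. Neither passed the test under BRM014.

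In H1299, GAS5 ranged from 165 to 168 CPM with BRM014 and from 169 to 178 CPM with DMSO. These groups did not overlap, but the log2 fold change was only -0.06 with a 95% interval from -0.12 to 0.004 (adjusted p = 0.188). Across all genes tested in H1299, 35.2% had groups that did not overlap, and 3 of the 7 members tested did. SNHG1 ranged from 143 to 151 CPM with BRM014 and from 148 to 156 CPM with DMSO in H1299 (log2 fold change -0.05, 95% interval -0.11 to 0.02, adjusted p = 0.354).

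In A549, GAS5 ranged from 122 to 129 CPM with BRM014 and from 125 to 134 CPM with DMSO, with a log2 fold change of -0.01 and a 95% interval from -0.10 to 0.08 (adjusted p = 0.867). SNHG1 ranged from 132 to 144 CPM with BRM014 and from 129 to 154 CPM with DMSO in A549, with a log2 fold change of 0.01 and a 95% interval from -0.12 to 0.14 (adjusted p = 0.937). The 3 A549 DMSO libraries spread widely for SNHG1, with replicate 1 lowest and replicate 3 highest. Without library a and DMSO replicate 1 the log2 fold change was -0.02 for GAS5 (adjusted p = 0.685). That of SNHG1 then turned to -0.03 (adjusted p = 0.582).

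The ratio of GAS5 to SNHG1 counts within a library does not depend on scaling. It averaged 1.12 ± 0.035 with BRM014 and 1.13 ± 0.044 with DMSO in H1299, and 0.898 ± 0.023 with BRM014 and 0.911 ± 0.051 with DMSO in A549 (SD, n = 3 each). The log2 difference, BRM014 minus DMSO, was -0.01 in H1299 (exact two-sided permutation p = 0.9) and -0.02 in A549 (p = 0.8; both 0.9 when adjusted over the 2 comparisons); with 3 libraries a group, 0.1 is the smallest p this test can give. The lines lay apart: the lowest ratio of any H1299 library was 1.08 and the highest of any A549 library was 0.967. In DMSO the log2 difference between the lines was 0.32, H1299 minus A549, with the smallest exact p the design allows (0.1); this comparison was added after the ratios were seen.

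**Figure D3:**
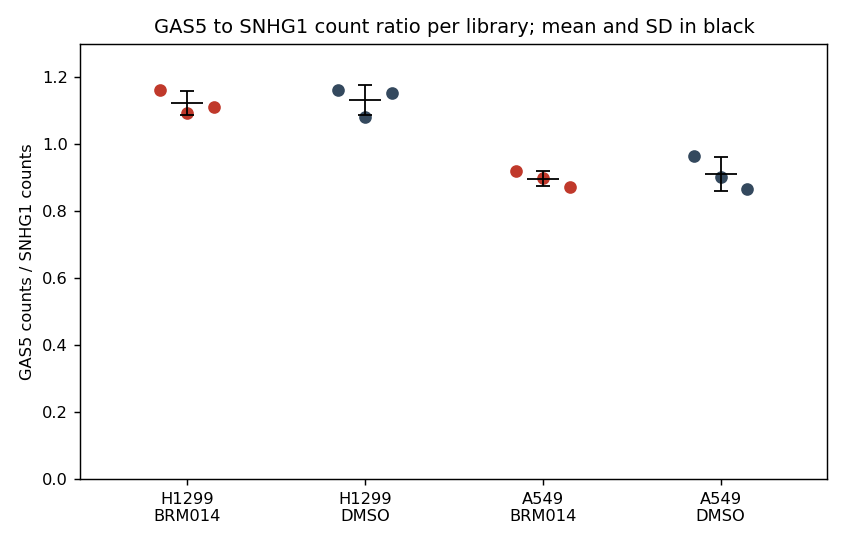
GAS5 counts divided by SNHG1 counts in each of the 12 libraries (points; red BRM014, dark DMSO; linear axis from 0), with the mean and SD of 3 libraries in black. All 6 H1299 libraries are at 1.08 or above, all 6 A549 libraries at 0.967 or below, and the treated and control libraries of a line overlap.

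GAS5 and SNHG1 were also the most alike pair of the set. Over the 12 libraries, with each gene's log2 CPM centred within its line, their Pearson r was 0.682, while the best match of each of the other members reached 0.122 to 0.314. These points share libraries and their scaling, and H19 was left out because of its few counts in H1299. The values describe these libraries only.

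PVT1 (ENSG00000249859) is transcribed next to MYC, and its promoter is known to compete with that of MYC for enhancers. In H1299 it stood at 34.4, 32.7 and 33.2 CPM in replicates 1, 2 and 3 with BRM014, against 37.1, 40.4 and 37.9 CPM with DMSO. In A549 it stood at 38.1 CPM in library a, 34.6 in library b and 35.2 in replicate 3 with BRM014, against 46.3, 44.4 and 47.1 CPM in replicates 1, 2 and 3 with DMSO. In both lines every treated library was below every control library.

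The log2 fold change of PVT1 was -0.20 ± 0.05 in H1299 (standard error, adjusted p = 0.00162) and -0.33 ± 0.06 in A549 (adjusted p = 0.000635). Without A549 library a and DMSO replicate 1 it was -0.38 (adjusted p = 3.93e-09). Of all genes tested, 13.4% lay below PVT1 in H1299 and 14.5% in A549, so falls of this size were common in both lines. The responses differed by 0.15 on the log2 scale, H1299 minus A549, with a 95% interval from -0.004 to 0.30 (adjusted p = 0.176), so the fit did not separate the lines here.

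CYTOR (ENSG00000222041), also called LINC00152, is a mostly cytoplasmic RNA known for its high level in many carcinomas. In H1299 it stood at 45.2, 47.8 and 43.3 CPM in replicates 1, 2 and 3 with BRM014, against 40.8, 40.2 and 38.0 CPM with DMSO. The treated libraries were all above the controls. This rise was 0.19 ± 0.05 on the log2 scale (standard error, adjusted p = 0.00162). Without replicate 2 with BRM014, the highest library, the rise was 0.16 (adjusted p = 0.0131).

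In A549, CYTOR stood at 36.4 to 38.4 CPM with BRM014 and at 36.6 to 37.7 CPM with DMSO, and the groups overlapped (log2 fold change 0.03, 95% interval -0.08 to 0.14, adjusted p = 0.644). With library a and DMSO replicate 1 left out it was 0.05 (adjusted p = 0.567). The difference of the responses was 0.18 on the log2 scale, H1299 minus A549, with a 95% interval from 0.04 to 0.33 and an adjusted p of 0.0747. It passed the threshold with a filter of at least 5 CPM (0.19, adjusted p = 0.049), which tests fewer genes.

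LINC-PINT (ENSG00000231721) did not pass the test under BRM014 in either line. In H1299 it ranged from 19.3 to 20.6 CPM with BRM014 and from 19.1 to 20.1 CPM with DMSO, and in A549 from 25.2 to 27.8 CPM with BRM014 and from 25.5 to 26.4 CPM with DMSO. Its log2 fold change was 0.04 in each line, with 95% intervals from -0.08 to 0.16 in H1299 and from -0.09 to 0.17 in A549 (adjusted p = 0.705 and 0.632). The groups of both lines overlapped. With A549 library a and DMSO replicate 1 left out, the log2 fold change in A549 turned to -0.005 (adjusted p = 0.962).

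H19 (ENSG00000130600) is an imprinted RNA of fetal tissue, expressed from the maternal allele and often switched on again in tumours. In A549 it had 226 counts in library a, 252 in library b and 229 in replicate 3 with BRM014, against 155, 123 and 137 counts in replicates 1, 2 and 3 with DMSO. These counts correspond to 5.57, 5.95 and 5.68 CPM with BRM014, against 3.70, 3.36 and 3.03 CPM with DMSO. Every treated library was above every control, with a wide gap.

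H19 rose by 0.79 ± 0.10 on the log2 scale in A549 (standard error, adjusted p = 7.56e-05), and without library a and DMSO replicate 1 it was 0.88 (adjusted p = 3.08e-09). It was the largest change of the set in either line, and 9.71% of all genes in A549 changed at least as much. Of the 8 members, 3 had treated and control libraries that did not overlap in A549 (MALAT1, H19 and PVT1), beside 48.2% of all genes tested.

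In H1299, H19 had 4, 2 and 7 counts in replicates 1, 2 and 3 with BRM014, against 1, 4 and 3 counts with DMSO, and was too low to be tested there. Summed over 3 libraries, these were 13 counts (95% exact Poisson interval 6.92 to 22.2) with BRM014 and 8 (3.45 to 15.8) with DMSO. The ratio per total counts was 1.56, with an interval from 0.598 to 4.33, which includes the ratio of 1.80 (1.59 to 2.03) that the same sums gave in A549. These counts therefore did not show whether the H19 response differed between the lines. H19 entered the joined fit of both lines only through its A549 level, so that fit is no test of its response in H1299. These Poisson intervals cover counting error only.

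MIR22HG (ENSG00000186594), the host of the microRNA miR-22, was low in both lines. It had 34, 33 and 20 counts in H1299 with BRM014 and 25, 31 and 33 with DMSO. In A549 it had 102 counts in library a, 89 in library b and 73 in replicate 3 with BRM014, against 83, 82 and 70 counts with DMSO. The groups overlapped in both lines, with log2 fold changes of -0.14 (95% interval -0.75 to 0.47, adjusted p = 0.807) in H1299 and 0.19 (-0.19 to 0.57, adjusted p = 0.429) in A549. These intervals are the widest of any member tested within a line, and changes of up to about their bounds could not be seen. With library a and DMSO replicate 1 left out, the log2 fold change of MIR22HG in A549 was 0.08 (adjusted p = 0.785).

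**Figure D4:**
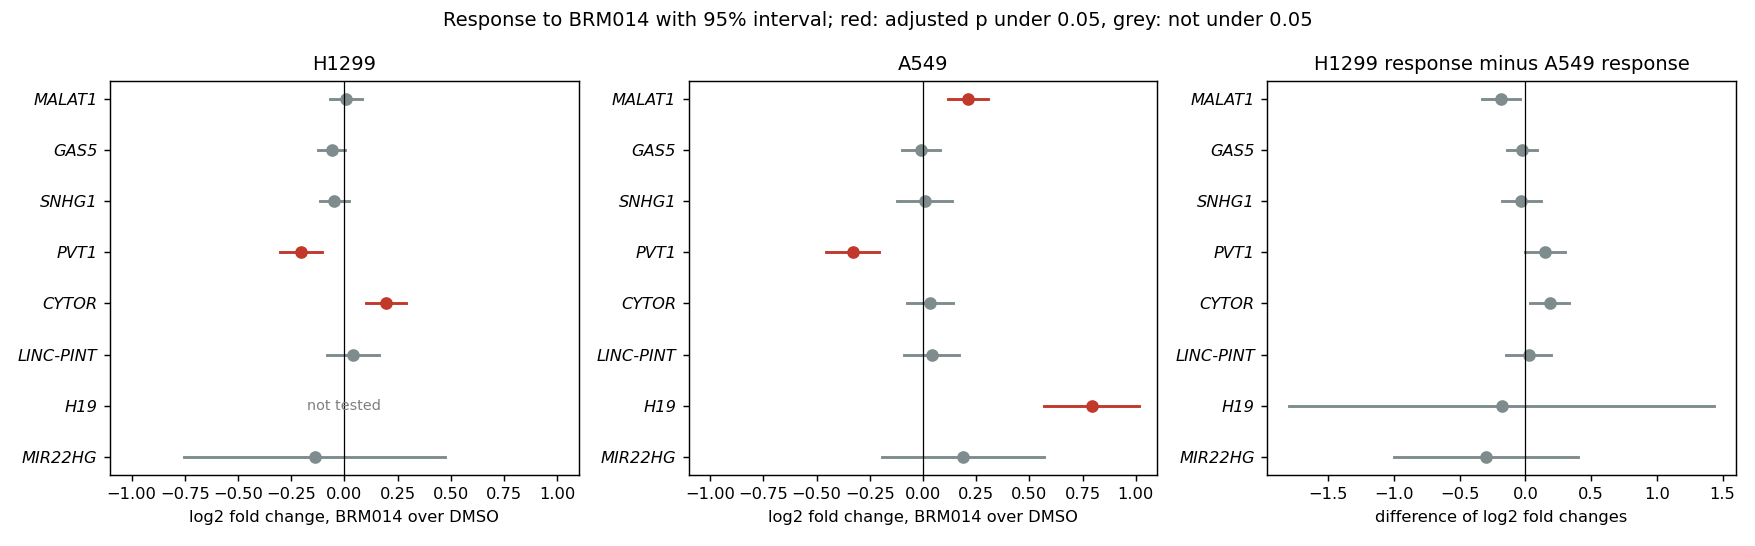
Points are log2 fold changes, BRM014 over DMSO, in H1299 (left) and A549 (middle), and the difference of these responses, H1299 minus A549 (right, wider axis); bars are 95% intervals and red marks an adjusted p below 0.05. PVT1 is below 0 in both lines, CYTOR passed only the H1299 test and MALAT1 and H19 only the A549 test, and no difference of the responses passed; the difference for H19 rests on the few counts of H1299.

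With H19 left out for its few counts in H1299, 0 of the other 7 lncRNAs passed the test of a different response between the lines, where 19.5% of all 16466 genes did, 10.2% as higher and 9.25% as lower in H1299 than in A549. At an unadjusted p below 0.05 there were 2, MALAT1 and CYTOR, and DESeq2 and limma-voom also gave 0. The calls in one line and not in the other for MALAT1 and CYTOR therefore do not show that the lines differed.

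In DMSO, 6 of these 7 lncRNAs differed in level between H1299 and A549, which is 85.7%, as it was for all genes tested (85.7%); 3 were higher in H1299 and 3 lower, where 42.9% and 42.8% of all genes were. The median size of the difference, without its sign, was 0.42 on the log2 scale for the 7 and 0.84 for all genes, and the median with its sign was 0.09 and 0.02. MALAT1 averaged 5538 ± 240 CPM in H1299 and 3209 ± 216 CPM in A549 (SD, n = 3 each), a log2 difference of 0.79 with a standard error of 0.05 (adjusted p = 1.95e-13). GAS5 averaged 173 ± 4.59 CPM in H1299 and 128 ± 4.70 CPM in A549, a log2 difference of 0.43 (adjusted p = 2.21e-10). Both were higher in every H1299 library than in any A549 library.

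Among those lower in H1299, LINC-PINT averaged 19.5 ± 0.534 CPM in H1299 and 26.1 ± 0.469 CPM in A549 (log2 difference -0.42, adjusted p = 4.53e-07). MIR22HG averaged 0.869 ± 0.255 CPM in H1299 and 1.92 ± 0.350 CPM in A549 (log2 difference -1.17, adjusted p = 6.22e-05). PVT1 averaged 38.5 ± 1.72 CPM in H1299 and 45.9 ± 1.40 CPM in A549 (log2 difference -0.26, adjusted p = 8.35e-05). In each of these the libraries of the lines did not overlap, as for 6 of the 7 members and 86.6% of all genes.

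H19 had the widest gap. It had 8 counts over the 3 H1299 DMSO libraries and 415 over the 3 A549 DMSO libraries, a ratio per total counts of 37.8, A549 over H1299, with an exact interval from 19.0 to 88.1. It entered the test only through its A549 level, so its call (adjusted p = 1.49e-14) adds nothing to these counts.

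SNHG1 and CYTOR were close in the lines. SNHG1 averaged 153 ± 4.53 CPM in H1299 and 141 ± 12.8 CPM in A549, with a log2 difference of 0.11 (adjusted p = 0.0434) and with libraries that overlapped. Over the alternatives tried, the adjusted p lay on either side of 0.05. Its adjusted p was above 0.05 without A549 DMSO replicate 1 (log2 difference 0.05, adjusted p = 0.342) or replicate 2 (adjusted p = 0.0939) or A549 library b (adjusted p = 0.0544). The same held without H1299 DMSO replicate 2 (adjusted p = 0.13) or 3 (adjusted p = 0.102) and without H1299 BRM014 replicate 2 (adjusted p = 0.0524) or 3 (adjusted p = 0.052), with DESeq2 (adjusted p = 0.0579), and without A549 library a and DMSO replicate 1 together (0.03, adjusted p = 0.477). It was lower without A549 DMSO replicate 3 (log2 difference 0.16, adjusted p = 0.00298), with the filter of 5 CPM (0.15, adjusted p = 0.00914) and with library totals (0.34, adjusted p = 1.07e-06). CYTOR averaged 39.7 ± 1.49 CPM in H1299 and 37.3 ± 0.557 CPM in A549 (log2 difference 0.09, 95% interval -0.01 to 0.20, adjusted p = 0.0998). Its DMSO libraries did not overlap between the lines, and it passed with the filter of 5 CPM (0.13, adjusted p = 0.0161).

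Scaling moved the differences between the lines. When counts were scaled to library totals and not by TMM, the median log2 difference of all genes was 0.24, where it was 0.02 with TMM. PVT1 then differed by -0.03 (adjusted p = 0.601), CYTOR by 0.32 (adjusted p = 2.72e-06) and SNHG1 by 0.34. MALAT1 differed by 1.01, GAS5 by 0.66, LINC-PINT by -0.19 and MIR22HG by -0.95, and each still passed the test. With TMM these differences were 0.79, 0.43, -0.42 and -1.17. Relative to the median of all genes, PVT1 differed by -0.27, CYTOR by 0.075 and SNHG1 by 0.10 under both scalings. A change of scaling shifts all genes by about the same amount, so this match was built in and adds no support.

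**Figure D5:**
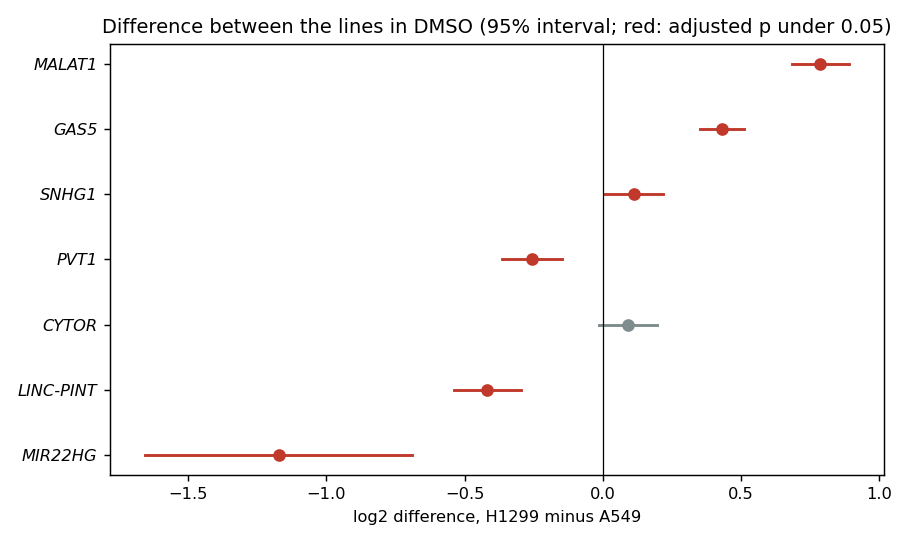
Points are log2 differences between the lines in DMSO, H1299 minus A549, bars are 95% intervals, and red marks an adjusted p below 0.05. MALAT1, GAS5 and SNHG1 lie above 0 and PVT1, LINC-PINT and MIR22HG below; H19, at 8 counts in H1299 and 415 in A549, is left out because its size rests on the few counts of H1299.

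Over the 4 groups, the order of mean levels followed the line first for most members. MALAT1 was highest in H1299 with BRM014 and with DMSO, which overlapped, then in A549 with BRM014 (3662 ± 159 CPM) and last in A549 with DMSO. H19 ran from A549 with BRM014 to A549 with DMSO and then both H1299 groups, which overlapped. GAS5 was higher in both H1299 groups than in both A549 groups, and LINC-PINT and MIR22HG were higher in both A549 groups than in both H1299 groups; the A549 groups of each of these 3 overlapped. For SNHG1 each group overlapped the next. PVT1 did not follow the line: it was highest in A549 with DMSO and next in H1299 with DMSO, then in A549 with BRM014 (36.0 ± 1.88 CPM), whose libraries overlapped those of H1299 with DMSO, and lowest in H1299 with BRM014 (33.4 ± 0.866 CPM). CYTOR was highest in H1299 with BRM014 (45.4 ± 2.25 CPM), while its other 3 groups lay within 37.3 to 39.7 CPM on average, each overlapping the next.

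The spread between replicates set the precision in different ways. For MALAT1 the coefficient of variation within groups was 4.33% to 8.46%, where counting error alone would give 0.219% to 0.275%, so its depth was not the limit. For GAS5, SNHG1, PVT1, CYTOR and LINC-PINT the values were 0.898% to 9.04% and 1.26% to 3.81%. For MIR22HG they were 16.5% to 29.3% and 10.7% to 18.6%, so counting error was a large share of its spread.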

How the data were processed

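For each line the authors deposited 1 table of raw, whole-number counts per gene, with 24019 identifiers for H1299 and 24353 for A549, of which 22842 are in both. The submitters' processing notes name the tools DESeq2, featureCounts, STAR 2.7.3a, cutadapt 1.14 and Bowtie 1.2.2 and the build hg38. What each tool did, the annotation and the strand setting were not given in the sources used here, which leaves genes that overlap or lie antisense to another uncertain. Per the labels' protocols, stranded libraries were made from 500 ng of RNA with spike-in RNA in proportion to cells. Spike-ins were not used here, so each change is a share of its library and total RNA per cell was not measured.

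Of the 107 samples of the series, 12 RNA-seq libraries were analysed; the other 95 were not used here. Symbols of the members come from the rule that chose them, by identifier. The name and sequence tables at hand were of mouse and matched 0 of 25530 identifiers, so other genes are not named, markers of the lines were not checked, and no sequences or positions are given. The members and tests were chosen with earlier results of these data known. All 10 members were to be named, with likeness as the highest Pearson r to another member over 12 libraries.

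edgeR 4.0.16 (R 4.3.3) was run on the counts with filterByExpr (count minimum 10, total minimum 15), TMM factors and glmQLFTest, two-sided, with Benjamini-Hochberg adjustment at 0.05 over all genes tested. Each line was fitted alone for its response. The difference of the responses and the levels in DMSO were compared in 1 fit of 12 libraries over shared identifiers, whose TMM factors also give the CPM. Standard errors were obtained from each log2 fold change and its F statistic. The planned MALAT1 to NEAT1 ratio could not be made, because NEAT1 had no row. The fits were tested on simulated counts with 1 spread for all genes. Few genes were changed there, by folds larger than those of most members, so the outcome does not carry over to the members. Alternatives were limma-voom (limma 3.58.1), DESeq2 1.42.0 and its size factors in edgeR, library totals, no filter, a filter of 5 CPM in 3 libraries, the joined fit, a replicate block in H1299 and leaving out libraries. The labels do not say whether replicates were separate cultures; p-values thus cover only the variation among these libraries, and it may be technical.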

Additional observations from a re-analysis of the deposited data

How the results depend on the processing

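The number of lncRNAs past the threshold was 3 in A549 under each of 14 alternatives, 2 to 3 in H1299 under 14 and, H19 included, 6 to 7 in DMSO under 19. For the difference of the responses it was 0 in the fit of all libraries and 1 with library totals, with no filter on low counts, with the filter of 5 CPM and without A549 DMSO replicate 1 and library a together; leaving out 1 library at a time gave 0 to 1. That 1 was CYTOR with the 5 CPM filter and MALAT1 in the others, and the cause was not tested. Of the 31 single-gene results, 18 kept their direction and side of the threshold in every alternative that tested them, among them PVT1 in both lines, H19 and MALAT1 in A549 and CYTOR in H1299. H19 entered the joined fit only through its A549 level, so its response difference and its DMSO difference add nothing to this tally. Its DMSO difference is among the 18. No called result turned its direction. Of all 510 single-gene alternative values, 23 changed sign without a call. The 510 include those of called results, so the share among results without a call is higher. With the 5 CPM filter MIR22HG was not tested. H19 passed that filter in A549 only through its BRM014 libraries, so its call there adds no support. The log2 difference of the GAS5 to SNHG1 ratio moved by less than the larger SD of its groups in each alternative, and its sign was not stable under BRM014; leaving out 1 library gave log2 differences, BRM014 minus DMSO, of -0.04 to 0.01 in H1299 and -0.06 to 0.02 in A549.

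A replicate block in H1299 gave 2 lncRNAs and 3272 genes in all, against 3296 without the block. The deviations of H1299 libraries with the same number had correlations of -0.0282 to 0.00768, all under 0.1. These gave no sign of pairing by number, but they cannot show that same-numbered libraries were handled apart. Replicate 3 with DMSO was the one H1299 library whose highest correlation was with its own number. In A549 only number 3 is shared between the groups, and no block was fitted. Depth limits H19 in H1299 and MIR22HG in both lines.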
